A study of Mus musculus with 12 samples.

Results

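Of 18193 genes that the array platform links to a probe set of their own, a set of 9 drug and organic ion transporter genes was examined. Their mRNA levels were followed in 12 mouse livers. These 9 were chosen by name from a larger number of such genes: the uptake carriers Slc22a5, Slc22a7, Slco1a4 and Slco2b1 and the efflux pumps Abcc2, Abcc3, Abcc4, Abcb1a and Abcg2. All 9 were measured, by 13 probe sets in all. The brightest probe set of each gene over the 12 arrays gave its main value. Whole-liver RNA was hybridised to Affymetrix arrays, 1 array per animal, in 4 groups of 3 separate mice: wild-type (Atf6a +/+) or Atf6a-/- animals, each given an intraperitoneal injection of vehicle (150 mM dextrose) or of tunicamycin (TM) at 1 mg/kg in that vehicle. Livers were taken 34 h after the injection by the titles and the protocol, although 1 label field gives 8 h. The mice were of varying age and of either sex, neither of which is given per animal. The Atf6a-/- groups lack ATF6a in whole animals, so that the loss is not limited to hepatocytes.

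The liver takes up organic anions, cations, bile salts and drugs from sinusoidal blood through carriers of the SLC22 and SLCO families, which use ion or solute gradients. It then expels them, often as conjugates, through ATP-binding cassette (ABC) pumps, either across the canalicular membrane into bile or back across the basolateral membrane into blood. Nuclear receptors and stress-activated factors that sense xenobiotics, bile acids and fatty acids control many of these genes. TM blocks N-linked glycosylation and thereby causes ER stress, and ATF6a is an ER membrane protein whose cleaved cytosolic part activates ER chaperone genes.

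After TM, 6 of the 9 transporter mRNAs fell in Atf6a-/- livers and 1, Abcc4, rose, and in wild-type livers 2 fell and 0 rose. Of 12042 genes above the highest array median, 41.0% were called in Atf6a-/- livers (19.0% lower) and 10.9% in wild-type livers (5.68% lower). When the responses of the genotypes were compared directly (the interaction), 3 members were called, namely Slc22a5, Slco1a4 and Abcc3, and Abcc4 was not (adjusted p = 0.0586). Slco1a4 and Abcc3 were 6.17-fold and 5.45-fold lower in Atf6a-/- than in wild-type livers after TM. Abcc4, which pumps bile acids and conjugates back into the blood, was 8.53-fold higher there. Slc22a7 fell in both genotypes. Abcc2, the main canalicular pump for conjugates, was called in no comparison of the values as deposited, although some alternative settings called it. None of the 9 differed between genotypes after vehicle. Throughout, a gene rose or fell where the limma test gave an adjusted p under 0.05 (Benjamini-Hochberg over 45037 probe sets) together with a change of over 1.5-fold.

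The promoters of the 3 members with contrasting patterns are shown, each as the 250 bases upstream of a RefSeq start (GRCm38.p6), 5' to 3' on the strand of the gene. They are Abcc4 at chr14:118706220-118706469, minus strand (1 of 2 listed starts), Slc22a5 at chr11:53891704-53891953, minus strand, and Slco1a4 at chr6:141856221-141856470, minus strand. Capitals mark matches to the motifs searched.
Abcc4: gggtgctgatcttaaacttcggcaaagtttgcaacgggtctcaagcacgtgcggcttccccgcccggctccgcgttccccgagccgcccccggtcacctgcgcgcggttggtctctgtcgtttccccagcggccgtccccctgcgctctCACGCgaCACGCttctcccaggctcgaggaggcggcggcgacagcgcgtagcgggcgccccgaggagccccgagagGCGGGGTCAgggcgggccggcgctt
Slc22a5: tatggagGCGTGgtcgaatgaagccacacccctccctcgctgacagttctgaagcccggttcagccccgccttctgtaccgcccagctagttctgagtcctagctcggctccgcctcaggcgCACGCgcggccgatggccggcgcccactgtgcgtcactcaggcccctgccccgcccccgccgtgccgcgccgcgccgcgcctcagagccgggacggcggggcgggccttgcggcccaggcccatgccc
Slco1a4: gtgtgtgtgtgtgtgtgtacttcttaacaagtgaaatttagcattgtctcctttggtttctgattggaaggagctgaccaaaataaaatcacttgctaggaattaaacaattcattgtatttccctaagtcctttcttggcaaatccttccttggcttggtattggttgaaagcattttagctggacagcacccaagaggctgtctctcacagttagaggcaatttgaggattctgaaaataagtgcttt
The antioxidant response element core TGACNNNGC, which NRF2 binds, was matched in the Abcc4 sequence, on the strand opposite to the one shown, 25 to 17 bases before the start, and 10.2% of 32851 upstream windows of this length held that motif on either strand. The other listed Abcc4 start and Abcc2 held 1 match each. The xenobiotic response element core GCGTG, read by the AHR-ARNT pair, was matched at 2 places in the Abcc4 and 2 in the Slc22a5 sequence, and 28.2% of all windows held it. No match was found in the Slco1a4 sequence for any of the 6 motifs searched. The other 4 motifs were the HNF1 half-site GTTAAT (6.43% of windows), the HNF4 core CAAAGTCCA (0.384%), the ATF4-CHOP composite TGATGNNAT (3.17%) and the ER stress response element (0.113%), none of which was matched in the 12 windows of the 7 members listed. Abcc3 and Slc22a7 had no entry. These matches describe letters in short windows, and binding was not measured.

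The arrays were first checked as a whole. The first principal component held 68.3% of the variance. Vehicle arrays lay between -61.5 and -55.8 on it and Atf6a-/- TM arrays between 113.6 and 119.9. The wild-type TM arrays lay at -12.9, 29.5 and -11.9, so animal 2 of that group stood apart. Atf6, the targeted gene, was 3.26-fold lower in Atf6a-/- than in wild-type livers after vehicle (adjusted p = 0.00611). After TM its log2 difference was 0.04 (adjusted p = 0.922), and whether its probe set lies in the deleted part is not given in the sources used here. The inactive-X transcript Xist stood at log2 levels of 12.19, 12.39 and 12.29 in animal 1 of 3 groups, namely wild-type livers after vehicle and Atf6a-/- livers after vehicle and after TM. In the other 9 animals, which include all wild-type TM animals, it lay between 5.37 and 6.68. Levels below are log2 values on the RMA scale of the deposited table, where 4.71 is the highest array median. In whole liver, fewer cells of a type and less RNA per cell cannot be told apart.

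**Figure D1:**
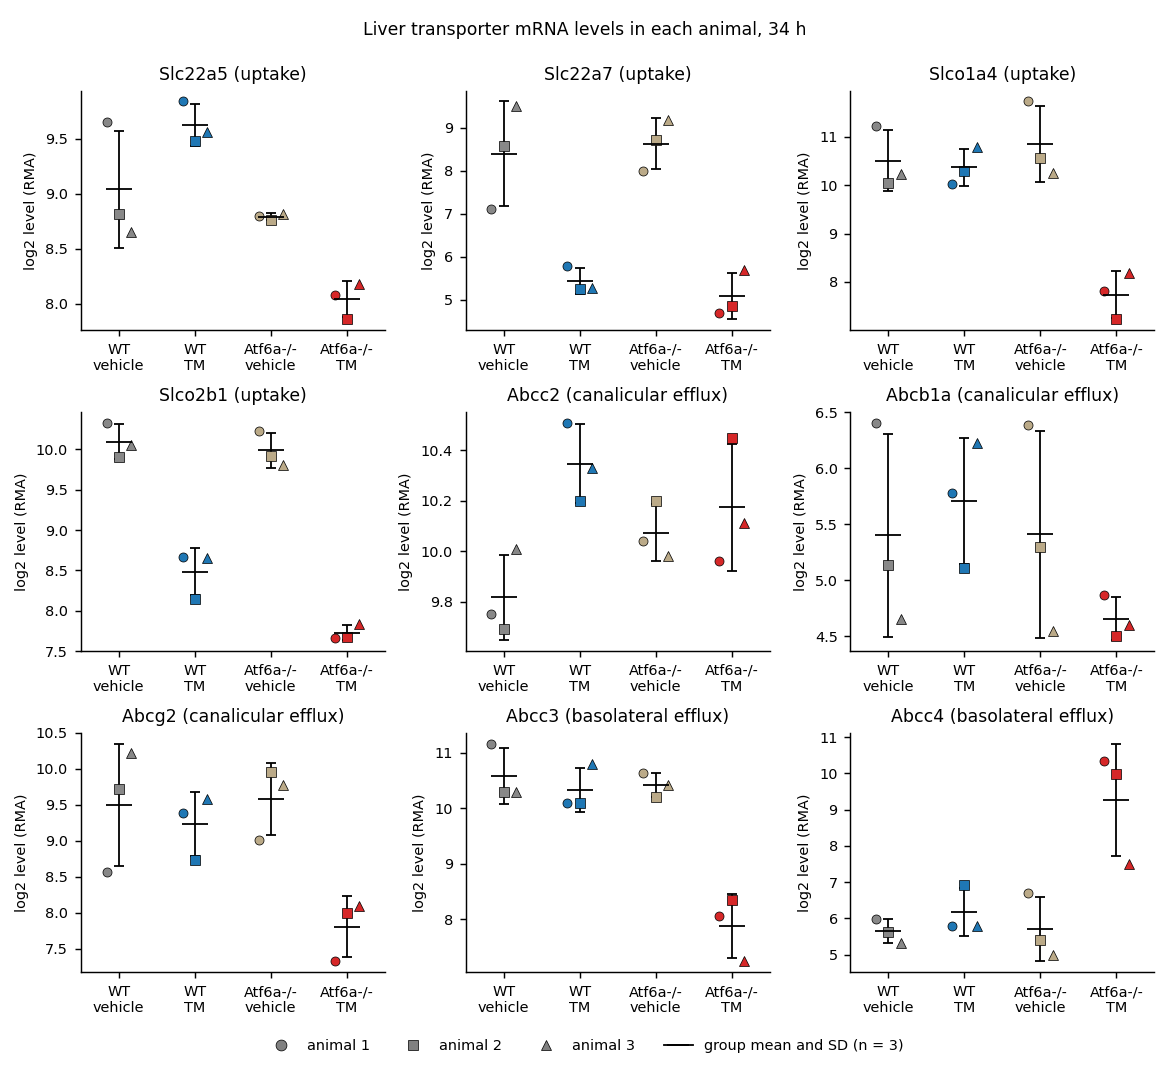
Log2 level of each transporter (y axis, own scale per panel) in each animal of the 4 groups (x axis), with group mean and SD, n = 3. Slco1a4 and Abcc3 are low, and Abcc4 high, in the Atf6a-/- TM animals alone, while Slc22a7 is low in both TM groups.

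Slc22a5 (OCTN2) is the high-affinity carnitine carrier, which also transports organic cations. Wild-type animals 1, 2 and 3 had log2 levels of 9.65, 8.82 and 8.65 after vehicle, and another 3 animals had 9.84, 9.48 and 9.56 after TM. Animal 1 of the vehicle group lay within the TM range, so these groups overlapped. The wild-type log2 difference, TM minus vehicle, was 0.59 ± 0.21 (SE), with an adjusted p of 0.144. Without wild-type vehicle animal 1, the animal with high Xist, it was 0.89 with an adjusted p of 0.00304. Atf6a-/- vehicle animals stood at 8.80, 8.76 and 8.82, and Atf6a-/- TM animals, all lower, at 8.08, 7.86 and 8.18. This fall was 1.68-fold (log2 difference -0.75 ± 0.21, adjusted p = 0.018). Its size changed little without Atf6a-/- vehicle animal 3 (log2 difference -0.74, adjusted p = 0.0526) or Atf6a-/- TM animal 2 (-0.66, adjusted p = 0.0691), but it then missed the threshold. It was also not called after scaling to the hybridisation spike-ins, control transcripts added to every array (log2 difference -0.27, adjusted p = 0.319). After TM, Slc22a5 was 3.01-fold lower in Atf6a-/- than in wild-type livers (log2 difference -1.59 ± 0.21, adjusted p = 0.000236), with no overlap of the 2 groups. The responses of the genotypes also differed when tested directly, with an interaction of -1.34 ± 0.30 on the log2 scale (adjusted p = 0.0135). A second, dimmer Slc22a5 probe set gave -1.28 between genotypes after TM (adjusted p = 0.000378) and an interaction of -0.94 (adjusted p = 0.0376). Its difference within Atf6a-/- livers was not called (log2 difference -0.49, adjusted p = 0.0668).

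Slc22a7 (OAT2), a basolateral organic anion transporter, varied widely among vehicle animals. Wild-type vehicle animals had log2 levels of 7.10, 8.57 and 9.51 and Atf6a-/- vehicle animals 7.99, 8.70 and 9.17, with animal 1 the lowest of each. TM animals had 5.78, 5.25 and 5.27 where wild-type and 4.70, 4.85 and 5.70 where Atf6a-/-. All 6 TM animals therefore lay below all 6 vehicle animals, and the TM values of Atf6a-/- livers came close to the array median. Slc22a7 fell 7.79-fold in wild-type livers (log2 difference -2.96 ± 0.51, adjusted p = 0.004, and -3.61 without vehicle animal 1, which had high Xist) and 11.6-fold in Atf6a-/- livers (-3.53 ± 0.51, adjusted p = 0.000185). A difference in response was not detected at an interaction of -0.57 ± 0.72 (95% interval -2.14 to 1.0, adjusted p = 0.75), an interval that also covers large differences. Without wild-type vehicle animal 1 the interaction was 0.08. After TM the log2 difference between genotypes was -0.35 (95% interval -1.46 to 0.76).

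Slco1a4 (OATP1A4) carries bile salts, steroid conjugates and other amphipathic compounds. Its log2 levels in wild-type animals were 11.22, 10.05 and 10.23 after vehicle and 10.03, 10.29 and 10.78 after TM, which overlapped. In Atf6a-/- animals they were 11.73, 10.56 and 10.25 after vehicle and 7.81, 7.23 and 8.18 after TM. The highest Atf6a-/- TM animal, at 8.18, was well below the lowest of all others, at 10.03. Slco1a4 fell 8.6-fold in Atf6a-/- livers (log2 difference -3.10 ± 0.40, adjusted p = 8.51e-05), while the wild-type difference was -0.13 ± 0.40 (adjusted p = 0.919). The interaction was -2.97 ± 0.57 (adjusted p = 0.00588), and between the TM groups the log2 difference was -2.63 ± 0.40 (adjusted p = 0.00064).

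Slco2b1 (OATP2B1), a carrier of steroid sulfates and many drugs, fell in both genotypes. Its log2 levels in wild-type animals were 10.33, 9.90 and 10.05 after vehicle and 8.66, 8.15 and 8.65 after TM. In Atf6a-/- animals they were 10.23, 9.92 and 9.81 after vehicle and 7.67, 7.68 and 7.84 after TM. The 2 TM groups overlapped neither with the vehicle groups nor with each other. The fall was 3.04-fold in wild-type livers (log2 difference -1.60 ± 0.16, adjusted p = 0.000147) and 4.77-fold in Atf6a-/- livers (-2.25 ± 0.16, adjusted p = 9.48e-07). After TM the Atf6a-/- level was 1.69-fold lower (adjusted p = 0.00597), a call lost after scaling to the spike-ins because the log2 difference, -0.55, was then under 1.5-fold. The interaction of -0.65 ± 0.23 was not called (adjusted p = 0.107), but passed without wild-type TM animal 2, which stood apart from its group (-0.82, adjusted p = 0.0188). A second Slco2b1 probe set gave larger changes. Its wild-type log2 levels were 10.88, 10.48 and 10.74 after vehicle and 8.90, 8.17 and 8.73 after TM. Those of Atf6a-/- animals were 11.03, 10.52 and 10.45 after vehicle and 6.52, 5.43 and 6.17 after TM. By this probe set the fall in Atf6a-/- livers was 24.7-fold and the interaction -2.52 ± 0.38 (adjusted p = 0.00145), so that the 2 probe sets agreed in direction and not on whether the responses differed. Which transcripts each detects is not given in the sources used here. Another probe set had group means of 4.39 to 4.62, under the array median, and no call.

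Abcc2 (MRP2) exports glutathione, glucuronide and bilirubin conjugates into bile. Wild-type animals had log2 levels of 9.75, 9.69 and 10.01 after vehicle and 10.51, 10.20 and 10.33 after TM, which did not overlap. The wild-type log2 difference of 0.53 ± 0.14 had an adjusted p of 0.044, but at 1.44-fold it stayed under the fold threshold. It passed both criteria when wild-type vehicle animal 3 was left out (0.63, adjusted p = 0.0428), when wild-type TM animal 2 was left out (0.60, adjusted p = 0.0462), and after scaling to the spike-ins (0.88, adjusted p = 0.00111). Atf6a-/- animals had 10.04, 10.20 and 9.98 after vehicle and 9.96, 10.45 and 10.11 after TM, which overlapped. Their log2 difference was 0.10 ± 0.14 (adjusted p = 0.666). Between the TM groups the log2 difference was -0.17 (95% interval -0.48 to 0.14), an interval that holds no change of over 1.5-fold. The interaction of -0.43 ± 0.20 was not called (adjusted p = 0.241). Both depended on the scaling. After scaling to the genes Btf3 and Ppia, the difference between the TM groups was -0.60 (adjusted p = 0.0112) and was called. The interaction was then -0.87 (adjusted p = 0.0204) and was also called.

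Abcg2 (BCRP), a canalicular pump for sulfate conjugates, urate and porphyrins, had log2 levels of 8.56, 9.72 and 10.22 in wild-type vehicle and 9.39, 8.73 and 9.58 in wild-type TM animals. In Atf6a-/- animals they were 9.01, 9.96 and 9.78 after vehicle and 7.32, 8.00 and 8.09 after TM, lower than in all other animals. Abcg2 fell 3.43-fold in Atf6a-/- livers (log2 difference -1.78 ± 0.40, adjusted p = 0.00467). The wild-type difference was -0.27 ± 0.40 (adjusted p = 0.811). After TM it was 2.69-fold lower in Atf6a-/- than in wild-type livers (adjusted p = 0.0254), which was not called once wild-type TM animal 1 (adjusted p = 0.0777), wild-type TM animal 3 (adjusted p = 0.108) or Atf6a-/- TM animal 1 (adjusted p = 0.104) was left out. The interaction, -1.51 ± 0.57, was not called (adjusted p = 0.13).

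Abcb1a (P-glycoprotein, MDR1A), which expels hydrophobic drugs, was the dimmest member. Wild-type animals had log2 levels of 6.41, 5.14 and 4.66 after vehicle and 5.78, 5.11 and 6.23 after TM. For Atf6a-/- animals they were 6.39, 5.30 and 4.55 after vehicle and 4.87, 4.50 and 4.60 after TM. The Atf6a-/- TM mean, 4.66, was under the array median. The TM groups did not overlap, but their log2 difference of -1.05 ± 0.49 was not called (adjusted p = 0.188), nor was any other Abcb1a comparison. With Xist as a covariate it was -1.41 and was called (adjusted p = 0.0116). The second Abcb1a probe set had group means of 3.54 to 4.30, all under the array median.

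Abcc3 (MRP3), which returns conjugates from hepatocytes to the blood, was low in the same group as Slco1a4. Its log2 levels in wild-type animals were 11.16, 10.29 and 10.29 after vehicle and 10.09, 10.10 and 10.79 after TM. In Atf6a-/- animals they were 10.63, 10.20 and 10.41 after vehicle and 8.05, 8.34 and 7.24 after TM. The Atf6a-/- TM animals again lay below all others. Abcc3 fell 5.79-fold in Atf6a-/- livers (log2 difference -2.53 ± 0.31, adjusted p = 5e-05), against a wild-type difference of -0.25 ± 0.31 (adjusted p = 0.762). The interaction was -2.28 ± 0.44 (adjusted p = 0.00567), and the TM groups differed by -2.45 ± 0.31 (adjusted p = 0.000156).

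Abcc4 (MRP4) moved the other way. Wild-type animals had log2 levels of 5.98, 5.64 and 5.32 after vehicle and 5.80, 6.93 and 5.80 after TM, and Atf6a-/- vehicle animals 6.69, 5.40 and 5.00. In Atf6a-/- TM animals they were 10.34, 9.98 and 7.49. Every Atf6a-/- TM animal exceeded every other animal, animal 3 by much less than the other two, and the SD of that group was 1.55. Abcc4 rose 11.9-fold in Atf6a-/- livers (log2 difference 3.57 ± 0.65, adjusted p = 0.00116) and was 8.53-fold higher than in wild-type livers after TM (3.09 ± 0.65, adjusted p = 0.00519). Without Atf6a-/- TM animal 3 these log2 differences were 4.46 and 3.98. The wild-type difference was 0.53 ± 0.65 (adjusted p = 0.768). The interaction of 3.04 ± 0.93 missed the threshold (adjusted p = 0.0586). It passed without Atf6a-/- TM animal 3 (3.93, adjusted p = 0.00288), without wild-type TM animal 2 (3.42, adjusted p = 0.0323), without Atf6a-/- vehicle animal 1 (3.54, adjusted p = 0.0365) and with Xist as a covariate (2.68, adjusted p = 0.041).

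**Figure D2:**
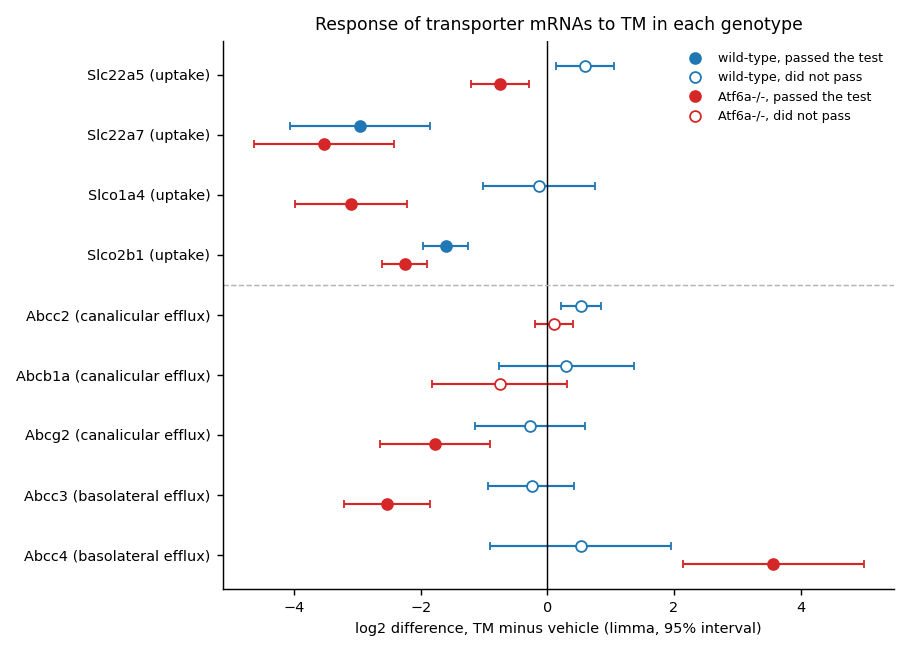
Log2 difference, TM minus vehicle, of each transporter (x axis) with its 95% interval from limma, in wild-type (blue) and Atf6a-/- livers (red). Filled points passed the test. In wild-type livers only Slc22a7 and Slco2b1 passed, in Atf6a-/- livers 6 members fell and Abcc4 rose.

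Members were called more often than the genes of the array in Atf6a-/- livers and between genotypes after TM. For wild-type livers and the interaction the counts are too small to set apart from the array share. The 9 were chosen with earlier results of these data known, so these shares are a description only. In Atf6a-/- livers 7 of 9 responded to TM, 6 of them lower, where 41.0% of the 12042 genes with a mean above 4.71 were called and 19.0% were lower. In wild-type livers 2 of 9 were called, both lower, against 10.9% of those genes in either direction and 5.68% lower. Between genotypes after TM, 6 of 9 differed, 5 of them lower in Atf6a-/- livers, against 28.9% and 12.7%. The interaction was called for 3 of 9, all negative, against 20.9% in either direction and 10.0% negative. After vehicle 0 of 9 differed between genotypes in limma (0 of 9 also at an unadjusted p under 0.05), against 0.00830% of genes. By the methods' t-test after Benjamini-Hochberg adjustment, neither wild-type fall was called, Abcc4 (adjusted p = 0.0997) and Abcg2 (adjusted p = 0.0501) lost their call in Atf6a-/- livers, and between genotypes after TM Slc22a5 alone was called. The median log2 difference of the 9 members was -0.13 in wild-type and -1.78 in Atf6a-/- livers, beside -0.03 and 0.01 over the 12042 genes.

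Uptake carriers and efflux pumps were then set side by side. All 4 uptake carriers fell in Atf6a-/- livers and 2 in wild-type livers. Of the 5 efflux pumps, 2 fell and 1 rose in Atf6a-/- livers, and none was called in wild-type livers. Uptake carriers had a median log2 response of -0.87 without and -2.68 with the loss of ATF6a, and efflux pumps 0.30 and -0.75. Measured per animal from the vehicle mean of its genotype, the uptake median was -0.95, -1.07 and -0.58 in wild-type TM and -2.67, -2.96 and -2.40 in Atf6a-/- TM animals. The efflux median was 0.15, -0.29 and 0.21, and -0.54, -0.91 and -0.81. In all 6 TM animals the uptake median was below the efflux median. Uptake minus efflux, taken between the medians of the log2 responses, was -1.17 in wild-type and -1.92 in Atf6a-/- livers, with an SD between animals of 0.25. The same quantity for the interaction terms was 0.06 and ranged from -0.54 to 0.38 when single animals were left out, so its sign was not settled. These medians cover few genes, and the efflux median combines Abcc3 and Abcc4, basolateral pumps that moved in opposite directions. Transporters outside the chosen ones showed little of this gap. In wild-type livers, 15 further uptake carriers had a median log2 response of -0.28 and 13 further efflux pumps -0.29. In Atf6a-/- livers these medians were -0.37 and -0.26. Lower uptake than efflux was thus seen in the medians of the chosen genes and hardly in those of the further lists. The further lists were not filtered by level and include dim genes such as Slc22a4. Whether the gap holds for these classes of transporter in general was not tested.

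**Figure D3:**
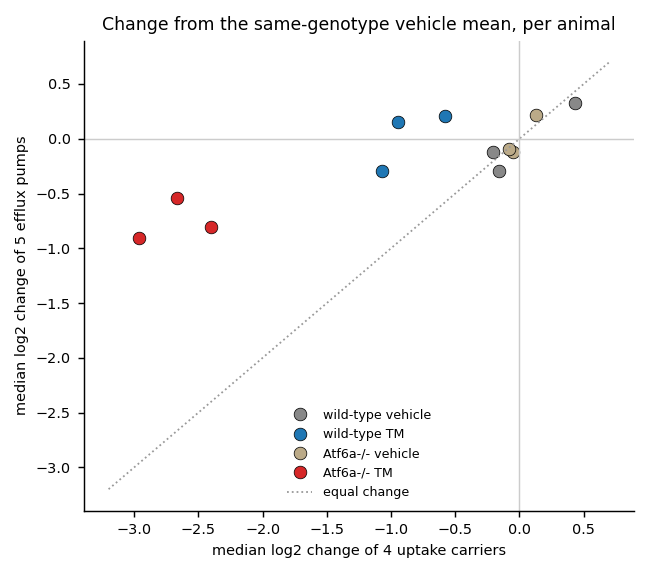
Median log2 change of the 4 uptake carriers (x axis) against that of the 5 efflux pumps (y axis) in each animal, from the vehicle mean of its genotype. Each point is an animal and the dotted line marks equal change. All 6 TM animals lie above the line, the Atf6a-/- ones farthest left, at uptake medians of -2.96 to -2.40.

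Some transporters outside the 9 had larger differences. Of 15 further uptake carriers measured, 6 fell and 2 rose in Atf6a-/- livers, and 4 fell in wild-type livers, beside the 41.0% of genes called in Atf6a-/- livers (19.0% lower) and the 10.9% in wild-type livers. Slc10a1 (NTCP), the sodium-coupled bile salt carrier, had log2 levels of 12.97, 12.78 and 13.03 in wild-type vehicle, 11.27, 11.17 and 11.35 in wild-type TM and 5.53, 4.38 and 4.83 in Atf6a-/- TM animals. Its log2 difference between the TM groups was -6.35 ± 0.26 (adjusted p = 4.8e-08). The Atf6a-/- TM mean of Slc10a1, 4.92, lay close to the array median, so the size of this difference is uncertain. Slco1b2, the liver-specific OATP, differed between the TM groups by -4.90 ± 0.33 (adjusted p = 1.93e-06). The 2 that rose in Atf6a-/- livers were Slc22a4 (OCTN1), a close relative of Slc22a5, and Slc16a1, the lactate carrier MCT1. Slc22a4 went from 4.52, 4.21 and 4.49 after vehicle, under the array median, to 6.60, 6.92 and 6.60 after TM, while Slc22a5 fell in those same livers. Of 13 further ABC and antiport pumps, 3 fell and 0 rose in wild-type livers, beside 10.9% of genes called and 5.68% lower. In Atf6a-/- livers 6 fell and 0 rose, beside 41.0% of those genes called in either direction and 19.0% lower. These 6 pumps include Abcg5, a sterol exporter into bile, at 10.63, 10.47 and 10.37 after vehicle and 4.14, 4.42 and 4.03 after TM in Atf6a-/- livers. Slc47a1 (MATE1), an antiporter of organic cations, had 11.07, 10.11 and 10.16 after vehicle and 5.21, 3.90 and 4.34 after TM. The TM means of both genes, 4.20 and 4.48, were under the array median, so that the sizes of their falls are not resolved.

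Most of the listed factors that sense xenobiotics, bile acids and fatty acids fell in Atf6a-/- livers. Of 13 measured, 10 fell and 1 rose there, beside 41.0% of genes with a mean above 4.71 called and 19.0% lower. In wild-type livers 5 fell, beside 5.68% of those genes lower. Nr1i3 (CAR), the constitutive androstane receptor, had log2 levels of 10.67, 9.76 and 9.87 in Atf6a-/- vehicle and 5.43, 4.87 and 5.58 in Atf6a-/- TM animals, a log2 difference of -4.81 ± 0.30 (adjusted p = 3.41e-07). Ppara, the receptor for fatty acids under which Slc22a5 is known to be induced, differed by -4.91 ± 0.18 in Atf6a-/- and -1.20 ± 0.18 in wild-type livers. The factor that rose was Nfe2l2 (NRF2), which is known to induce several MRP pumps. After TM its log2 levels were 8.55, 8.75 and 8.56 where wild-type and 9.48, 9.95 and 9.71 where Atf6a-/- (log2 difference 1.09 ± 0.17, adjusted p = 0.000584). Among 15 marker targets of these factors, 4 rose and 5 fell in Atf6a-/- livers, beside 22.0% of those genes higher and 19.0% lower. Srxn1, a sulfiredoxin induced by NRF2, had log2 levels of 7.52, 7.31 and 7.31 in Atf6a-/- vehicle and 11.78, 12.30 and 11.97 in Atf6a-/- TM animals. Cyp2b10, the usual marker of CAR, rose in Atf6a-/- livers by 3.42 ± 0.58 although Nr1i3 mRNA fell there. Its log2 levels in those livers were 10.58, 7.86 and 7.57 after vehicle, the first in the animal with high Xist. After TM they were 12.33, 11.95 and 12.0. The interaction for Cyp2b10, 2.72 ± 0.82, was not called (adjusted p = 0.0551). Among the MRP pumps of the 9 genes, Abcc4 rose, Abcc3 fell and Abcc2 was not called in Atf6a-/- livers. Of the wild-type TM animals, animal 2 had the highest level of both Srxn1 (7.71, 9.68 and 8.01) and Abcc4 (5.80, 6.93 and 5.80). That animal also stood apart from its group on the first principal component of all probe sets, so a match in it is not particular to these 2 genes. Whether any of these factors acted on the 9 genes was not tested.

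Genes for scaffolds and for carnitine use also changed. Pdzk1, a PDZ scaffold of the hepatocyte membrane, went from 9.14, 8.96 and 9.02 to 5.14, 4.89 and 5.01 in Atf6a-/- livers after TM (log2 difference -4.02 ± 0.12, adjusted p = 2.75e-09). Of the 5 scaffolds and membrane linkers measured, 3 fell and 0 rose there, beside 41.0% of genes with a mean above 4.71 called and 19.0% lower. Of 8 genes that use or make the carnitine imported by Slc22a5, 7 fell and 0 rose in Atf6a-/- livers, beside the same 41.0% and 19.0%. In wild-type livers 2 of these 8 fell, beside 5.68% of genes lower. Among them, Cpt1a, which loads fatty acids onto carnitine, had log2 levels of 11.79, 11.29 and 11.50 in wild-type TM and 9.29, 9.37 and 9.54 in Atf6a-/- TM animals (log2 difference -2.12 ± 0.14, adjusted p = 1.87e-06).

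Markers of liver cell types were read beside the 41.0% of genes called in Atf6a-/- livers, 19.0% lower. Of 9 hepatocyte markers measured, 7 fell and 0 rose in Atf6a-/- livers, and 2 fell in wild-type livers, where 5.68% of genes were lower. Their mean log2 level was 13.17 to 13.49 over Atf6a-/- vehicle, 12.80 to 13.20 over wild-type TM and 11.60 to 11.98 over Atf6a-/- TM animals. Of 12 endothelial markers 4 fell, and of 11 Kupffer cell and macrophage markers 7 fell and 2 rose in Atf6a-/- livers. Of 9 neutrophil markers, 2 rose and 0 fell, with Mpo, Camp and Ltf under the array median on every array. None of the 7 cholangiocyte markers was called in Atf6a-/- livers, and Krt7 and Cftr were under the array median throughout. Of 10 stellate markers 2 fell, and of 8 lymphocyte and 3 red cell markers 1 each fell, and for stellate and lymphocyte markers this is near or under that share. Hepatocyte and Kupffer cell markers were thus the lists with most members lower in Atf6a-/- livers. Of the 11 Kupffer cell and macrophage markers, 5 fell and 1 rose in wild-type livers too, beside 10.9% of genes called and 5.68% lower. Between genotypes after TM, 0 of these markers were lower and 1 was higher in Atf6a-/- livers. Of the 9 hepatocyte markers, 5 were lower and 0 higher in that comparison, beside 28.9% of genes called and 12.7% lower. The part of these shifts in the transporter values was not tested.

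Animals with high Xist held the extremes of several transporters. In the 3 groups that contain such an animal, it had the lowest Slc22a7 and the lowest Abcg2 of its group in 3 of 3, and the highest Abcc4 and Abcb1a in 3 of 3. For Slc22a7 it differed by -1.94, -0.95 and -0.58 log2 units from the mean of the other group members in the group of wild-type livers after vehicle and in those of Atf6a-/- livers after vehicle and TM, in this order. Slco1a4, Slco2b1 and Abcc3 had it highest in 2 of 3. With Xist as a covariate in the fit, 5 rather than 3 members were called for the interaction, Abcc4 and Abcg2 being added. The fit also added Abcb1a between genotypes after TM, and no other call on the 9 genes changed. Since no wild-type TM animal had high Xist, the TM response of wild-type livers, the comparison of genotypes after TM and the interaction all include the contrast of 1 high-Xist animal in 3 with 0 in 3.

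**Figure D4:**
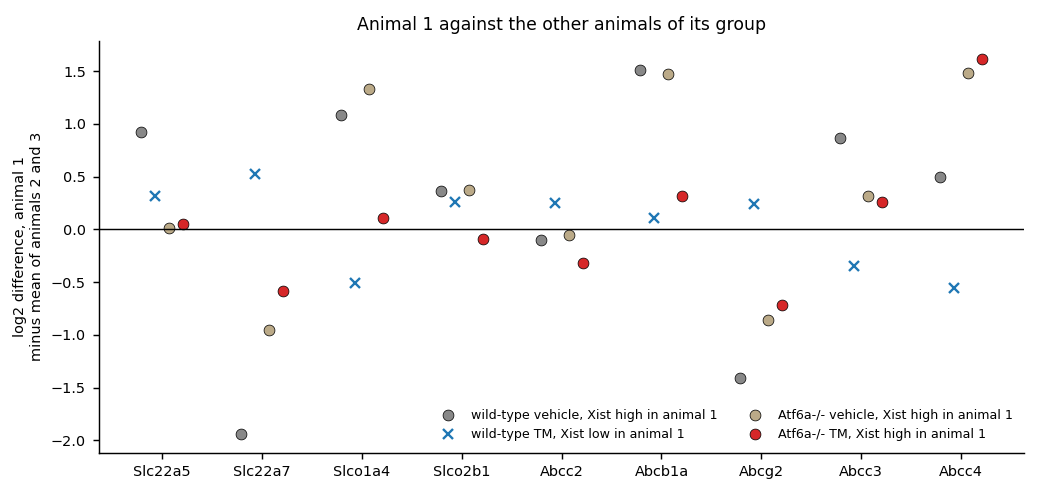
Log2 level of animal 1 minus the mean of animals 2 and 3 (y axis) for each transporter (x axis) and group. Circles mark the groups whose animal 1 had high Xist and crosses the wild-type TM group, where it did not. Circles are below 0 in 3 of 3 groups for Slc22a7, Abcg2 and Abcc2. They are above 0 in 3 of 3 for Abcb1a, Abcc4, Slc22a5, Slco1a4 and Abcc3. Some of these lie close to 0, such as Slc22a5 at 0.01 in the Atf6a-/- vehicle group. Only Slco2b1 has circles on both sides.

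The genes whose levels followed each transporter most closely across the 12 arrays were listed among 7475 genes with a group mean of at least 7, by Pearson's r, as a description of arrays that share the same 4 groups. Slco1a4 was followed by Fam234b (r = 0.974), Cyp2c68 (0.972) and Nr1i3 (0.969). The nearest to Abcc3 was Gpd1l (0.983), and to Slco2b1 it was Ifitm2 (0.990). Slc22a7 was closest to Vps41 (0.983) and Abcg2 to Itih5 (0.968). Abcc4, the member that rose, was closest to Cdc42se1 (0.971). Slc22a5 was nearest Mroh1 (0.948) and Txnip (0.938). The 2 members with the least difference between groups had lower values, Abcc2 with Ikbke (0.875) and Abcb1a with Arfgef2 (0.887).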

How the data were processed

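Whole-liver RNA of 12 mice (3 per group) was measured on Affymetrix arrays. The deposited table holds log2 expression values, made by the authors with RMA, which corrects background, equalises the distributions of the arrays and summarises probes by median polish. The submitters' processing notes name affy and limma without versions. Values were used as deposited, with no filter on dim probe sets. Of 45101 features, 64 control probe sets were left out. The platform table gives 1 symbol to 34945 probe sets, several to 932 and none to 9160. No 2 arrays were identical (highest correlation 0.995). The number of arrays limits the precision.

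Group means were fitted in R 4.3.3 by limma 3.58.1 (lmFit and eBayes) for 5 contrasts, two-sided, adjusted by Benjamini-Hochberg within a contrast, and the script was tested on simulated data. Tables used pandas 2.3.3 and numpy 2.4.6 under Python 3.11.15, and plots matplotlib 3.10.9.

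The members and gene lists were chosen with earlier results of these data known. Named are the 9 transporters with, from each list other than cell types, no more than 2 members that rose most and 2 that fell most between genotypes after TM, the controls Atf6, Btf3 and Xist, and genes closest to each member by Pearson's r. Examples among these were picked after their values were seen. Alternatives covered normalization, scaling to Btf3 and Ppia or to spike-ins (the latter chosen after seeing the data), dim probe sets, all probe sets of a gene, the groups fitted, Xist, the replicate block, the methods' t-test and leaving out each animal.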

Additional observations from a re-analysis of the deposited data

Results flagged for a closer look

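The responses to TM differed between genotypes for 3 transporters by the test of the interaction itself. For Slc22a5 the interaction was -1.34 on the log2 scale (adjusted p = 0.0135), with a wild-type response of 0.59 and an Atf6a-/- response of -0.75. For Slco1a4 it was -2.97 (adjusted p = 0.00588) and for Abcc3 -2.28 (adjusted p = 0.00567). All 3 calls held in each of the 22 alternatives run for that test. Outliers were not assessed, since the groups hold 3 animals.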

How the results depend on the processing

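Of 1098 values of named genes under the alternatives, 1057 kept their side of the threshold, 16 lost and 25 gained a call. The sign changed in 0 values called on either side, while some uncalled values changed sign, such as the wild-type response of Slco1a4 (0.22 after scaling to the spike-ins). Scaling to Btf3 and Ppia brought the median of all probe sets, near 0 otherwise, to -0.53 in the Atf6a-/- response and -0.43 between genotypes after TM, and Btf3 itself rose in Atf6a-/- livers (log2 difference 1.13), so changes are relative to that median. The counts were then 20714 probe sets against 9480, 11198 against 6458, and 6 members against 3 for the interaction. The spike-ins, dimmer on TM arrays, brought it to 0.34 and 0.47 in the wild-type and Atf6a-/- responses, with 5411 probe sets against 2353 and 4 members against 2 in wild-type, and 16744 probe sets in Atf6a-/- livers. The methods' t-test after Benjamini-Hochberg called 0 members and 1 probe set in wild-type livers and 1 member and 1253 probe sets between genotypes after TM. After vehicle it called 38 probe sets unadjusted and 0 adjusted, against 1 in limma. Same-numbered animals deviated together in some pairs only (r from -0.19 to 0.43, 10 of 18 pairs over 0.1, 10 of 18 closest to their own number), so the numbers were not taken to pair them. With the replicate block, 5 members were called for the interaction, Abcc4 (adjusted p = 0.0198) and Abcg2 (adjusted p = 0.0489) being added, and 5 with Xist. Uptake minus efflux between genotypes after TM was -0.38 with the mean of all probe sets against -0.12. Leaving out each animal gave 3 to 5 members for the interaction, 0 to 4 probe sets after vehicle, and uptake minus efflux from -2.13 to -1.62 in Atf6a-/- livers, -0.34 to 0.16 after vehicle and -0.54 to 0.38 for the interaction. The cause of these changes was not tested. At 3 animals per group, Abcb1a, near the array median, is the member least resolved.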
